A study of Mus musculus with 12 samples.

Results

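The cathepsin family genes described here are 10 lysosomal and endosomal proteases, chosen by symbol from the rows of the deposited expression table: Ctsb, Ctsl, Ctss, Ctsk, Ctsh, Ctsc, Ctsz, Ctsd, Ctse and Lgmn. They are 10 of 15672 genes in the table. All 10 passed the filter on low values, which required the log2 CPM (the log2 of read counts scaled to a common library size, as CPM) to exceed 0 in 3 or more of the 12 libraries and left 14147 genes for testing. The libraries are bulk RNA-seq of mouse tumour tissue labelled MB (medulloblastoma, a tumour of the cerebellum), taken at end point. SG tumours had the genotype fSMO-M2;hGFAPcre, in which Cre recombinase under the human GFAP promoter switches on an active form of Smoothened, the transducer of Hedgehog signals. YSGr tumours had the genotype fYap1;fSMO-M2;hGFAPcre, which adds a floxed allele of Yap1, a transcriptional coactivator of the Hippo pathway, and the labels call them rescued without saying what was rescued. Each genotype had 3 male and 3 female libraries, numbered from 1 to 12 across the study: SG had males 1 to 3 and females 4 to 6, and YSGr had males 7 to 9 and females 10 to 12. All 12 tumours thus carried fSMO-M2 and hGFAPcre. The labels give no ages, do not describe a control without the tumour alleles, and do not say whether each library came from a separate animal, so p-values measure the spread between these libraries, which may be partly technical. Recombination is limited to cells in which the GFAP promoter was active and their progeny, so blood-derived and vascular cells of the host would keep Yap1.

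Cathepsins are made as inactive precursors, carried to endosomes and lysosomes largely by mannose 6-phosphate receptors, and activated as the compartment turns acidic. Most are cysteine proteases, Ctsd and Ctse are aspartic proteases, and Lgmn cleaves after asparagine and helps mature several of the others. In brain tissue they are best known from microglia and macrophages, where they digest engulfed material and trim proteins for presentation on MHC class II.

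The libraries held 8854774 to 9478654 estimated reads, and 1 read was worth 0.1 to 0.111 CPM. Yap1, the targeted gene, had 174 to 253 estimated reads in each SG library. It had 33, 29 and 14 reads in males and 9, 12 and 7 reads in females of YSGr, with a log2 fold change of -3.64 (SE 0.20). Markers of granule neuron progenitors, the cells from which this tumour type grows, were present in every library, with 9 of 9 listed genes tested. Their sums were 3980 to 4600 CPM in SG males and 2980 to 4090 in YSGr males. In females they were 4490 to 4650 CPM in SG and 4270 to 4850 in YSGr, so the genotypes overlapped in each sex. Of the 9 progenitor markers, 5 fell in YSGr, among them Atoh1 (log2 fold change -0.59, limma adjusted p = 0.0076). Zic1, among the most abundant of them, was at 0.19 (limma adjusted p = 0.37). In turn 3 of 9 markers of differentiated granule neurons rose, among them Camk4 (1.47, limma adjusted p = 0.00068) and Neurod1 (0.51, 0.038). The Camk4 call held in all 12 left-out fits, and the Neurod1 call was lost in 7 of them. The differentiated markers summed to 1870 to 2360 CPM in SG and 2310 to 3520 CPM in YSGr. Of 9 endothelial markers 4 fell, and their sums were 95.3 to 155 and 64.4 to 115 CPM. Among all genes tested 6.16% rose and 5.27% fell with the sexes averaged. The part of these marker shifts in the cathepsin results was not tested. YSGr male 8 stood apart in its oligodendrocyte lineage markers, whose sum was 10600 CPM against 1130 to 3030 CPM in the other libraries. SG male 2 stood apart in the cathepsins themselves, as described below. Because the tissue is bulk, a change in the number of cells of a type and a change in RNA per cell cannot be told apart.

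Promoter sequence is shown for the pair of members whose 6 YSGr values all lay above the 6 SG values, Ctss and Ctsc, and for Ctsk, which lies on the same strand of chromosome 3 as Ctss, ends 17423 bp before it and had an estimate of the opposite sign. Each is the 250 bases before the RefSeq start on build GRCm38.p6, written 5′ to 3′ along the gene. Capitals mark matches to the 5 motifs searched. These windows are chr3:95526536-95526785 (plus strand) for Ctss, chr7:88277835-88278084 (plus strand) for Ctsc and chr3:95498960-95499209 (plus strand) for Ctsk.
Ctss: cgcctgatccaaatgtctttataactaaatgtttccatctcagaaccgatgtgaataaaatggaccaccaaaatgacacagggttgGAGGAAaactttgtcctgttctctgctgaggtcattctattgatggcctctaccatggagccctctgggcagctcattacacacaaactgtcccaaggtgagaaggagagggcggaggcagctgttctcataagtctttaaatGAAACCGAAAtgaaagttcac
Ctsc: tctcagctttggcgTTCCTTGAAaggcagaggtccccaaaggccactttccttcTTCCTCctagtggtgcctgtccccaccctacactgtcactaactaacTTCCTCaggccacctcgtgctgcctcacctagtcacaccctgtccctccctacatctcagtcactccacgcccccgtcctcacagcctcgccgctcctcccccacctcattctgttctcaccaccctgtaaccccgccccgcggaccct
Ctsk: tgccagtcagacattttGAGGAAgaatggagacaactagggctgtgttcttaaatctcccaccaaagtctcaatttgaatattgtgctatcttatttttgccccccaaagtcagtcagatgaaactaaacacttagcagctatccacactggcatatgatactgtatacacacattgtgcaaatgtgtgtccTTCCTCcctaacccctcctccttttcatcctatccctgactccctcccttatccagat

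The motifs, searched on both strands, were the PU.1 core GAGGAA, the interferon response element (a pair of GAAA blocks set apart by any pair of bases), the STAT element TTCNNNGAA, the TEAD core GGAATG and the E-box core of the CLEAR element, CACGTG. PU.1 is a transcription factor of myeloid cells, TEAD factors bind Yap1, and the CLEAR element is bound by TFEB and its relatives, which drive lysosomal genes. Ctss held GAGGAA at position -164 and GAAACCGAAA at position -21, counted from the start to the first base of the match. Ctsc held TTCCTTGAA at -236 and the reverse complement of the PU.1 core, TTCCTC, at -196 and -149. Ctsk held GAGGAA at -233 and TTCCTC at -58. Of 32851 RefSeq windows of this length, 23.3% held the PU.1 core, 3.0% the interferon response element, 7.0% the STAT element, 12.6% the TEAD core and 6.0% CACGTG. The short cores can overlap longer motifs and are common, so a match describes only the letters in the window. Windows existed for 7 members (8 windows, since Lgmn has 2). CACGTG stood in those of Ctsd (at -245 and -98), Ctsl (at -236) and Lgmn (at -49 of 1 window, with GGAATG at -60 of the same window), and Ctsz held none of the motifs. The Ctsl window (64370521 to 64370770) and this Lgmn window (102439093 to 102439342) lie inside the GENCODE gene spans. Those genes start on the minus strand at 64370890 and 102439813. The other Lgmn window (102439729 to 102439978), which spans the annotated Lgmn start, held none of the motifs. The Ctsd window (142387828 to 142388077) spans the annotated Ctsd start on the minus strand at 142388038. Its match at -98 lies inside the GENCODE gene span and its match at -245 lies before it. Ctsb, Ctsh and Ctse were not analysed here for promoter motifs.

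Per kilobase of transcript, the cathepsins spanned more than 2 orders of magnitude in these tumours and kept the same order of mean levels in both genotypes. Ctsd, the main aspartic protease of lysosomes, was highest at 548 ± 117 CPM per kb in SG and 641 ± 77.4 in YSGr (SD, n = 6 each). Ctsb, a cysteine protease that also removes dipeptides from the carboxyl end, followed at 118 ± 20.4 and 154 ± 17.9 CPM per kb. Lgmn stood at 87.1 ± 13 and 103 ± 13.6, and Ctsz, a carboxypeptidase also called cathepsin X, at 75.1 ± 17.1 and 87.3 ± 10.4. The means of Lgmn and Ctsz differed by less than the sum of their SDs in both genotypes, and those of Ctsb and Lgmn did so in SG. Ctss and Ctsl were close to each other in SG, at 37.4 ± 5.95 and 33.6 ± 3.76 CPM per kb, and further apart in YSGr, at 73 ± 12.9 and 44 ± 6.51, a difference larger than the sum of the SDs. Ctsh stood at 11.6 ± 1.65 and 17.6 ± 4.93, and Ctsc at 6.62 ± 0.534 and 11.4 ± 2.31. The lowest were Ctse, at 3.78 ± 0.694 and 2.60 ± 2.03, and Ctsk, at 1.62 ± 0.49 and 0.979 ± 0.498. In YSGr the neighbours Ctsz and Ctss, Ctsh and Ctsc, and Ctse and Ctsk each differed by less than the sum of their SDs. In CPM without length scaling, Ctsb and Ctsd together made up 77.4 to 81.0% of the summed level of the 10 genes in every library. That sum was 1926 to 2092 CPM in 5 SG libraries, 2990 CPM in SG male 2 and 2420 to 3179 CPM in YSGr.

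**Figure D1:**
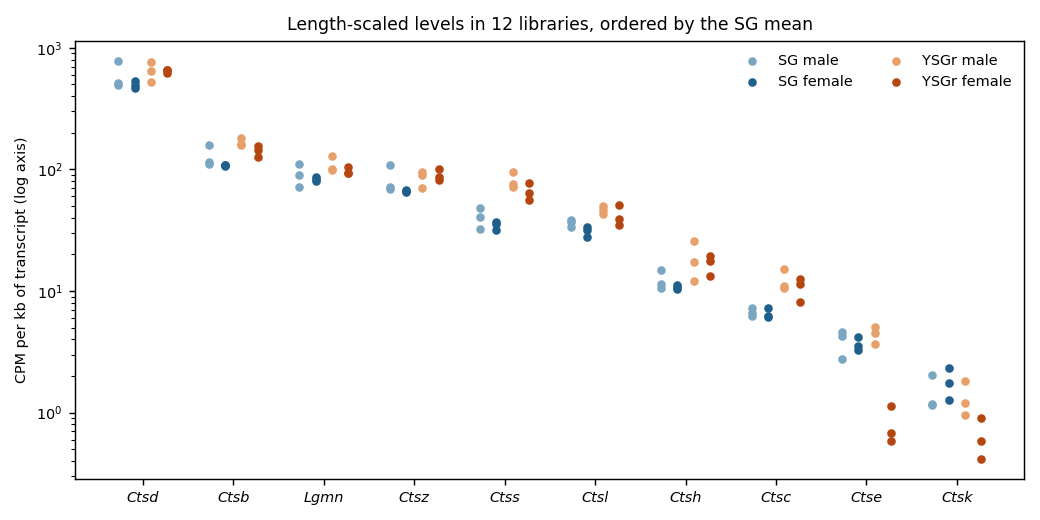
Level of each cathepsin in CPM per kilobase of transcript (log axis), with 1 point per library and the genotypes in separate colours. Ctsd was highest and Ctsk lowest by mean in both genotypes, and the Ctss and Ctsc points of the genotypes do not overlap.

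With the sexes averaged, 4 of the 10 cathepsins rose in YSGr (Ctss, Ctsc, Ctsb and Ctsl) and 1 fell (Ctse), by limma at an adjusted p below 0.05 over all genes tested. Among all 14147 genes, 6.16% rose and 5.27% fell in this comparison (11.4% in either direction). At an unadjusted p below 0.05 the members numbered 8, against 28.6% of all genes. The median log2 fold change of the 10 members was 0.32, beside 0.00 for all genes tested, and 8 of the 10 estimates were above 0. For Ctss and Ctsc all 6 YSGr libraries lay above all 6 SG libraries, as did 2.93% of all genes. No member had all 6 YSGr libraries below all 6 SG libraries, against 2.96% of all genes.

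**Figure D2:**
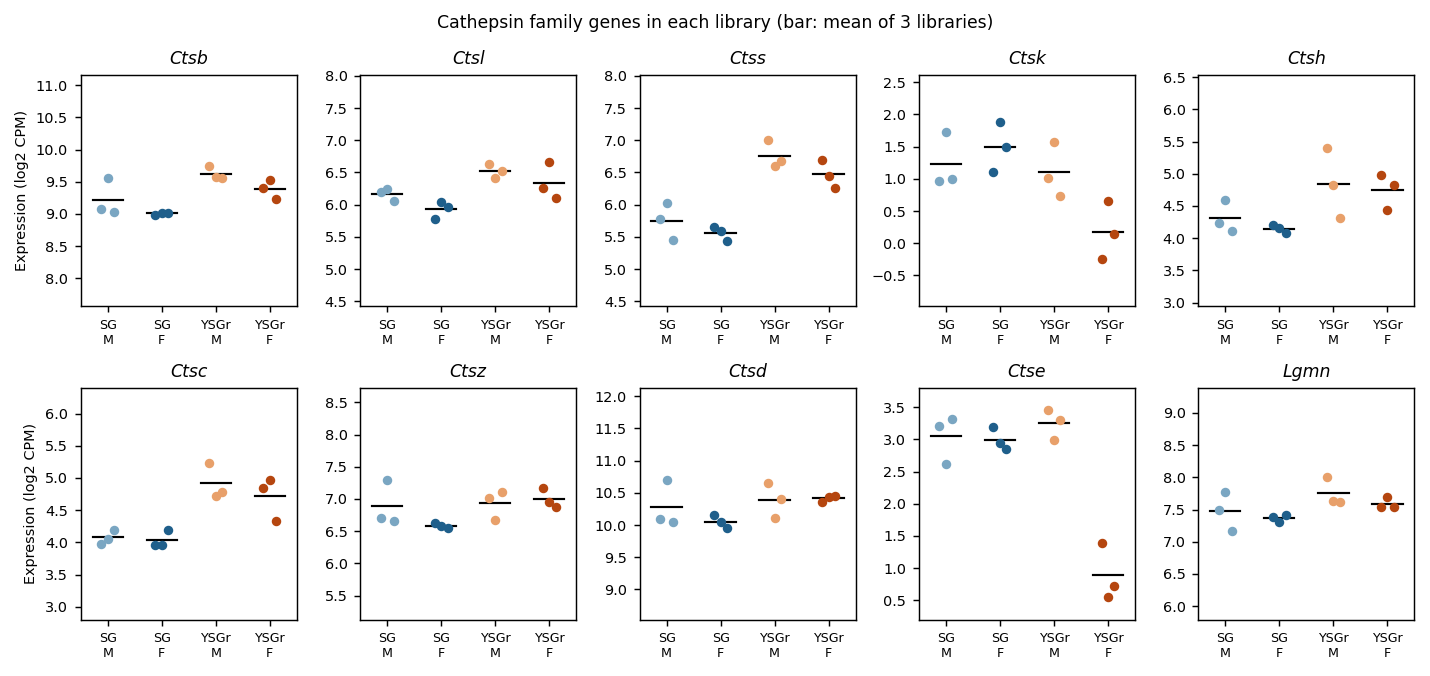
Log2 CPM of each cathepsin in each of the 12 libraries, grouped by genotype and sex, with a bar at each group's mean of 3 libraries. Ctss and Ctsc were higher in every YSGr library, and Ctse was low in YSGr females. SG male 2 was the highest SG library for Ctsb, Ctsl, Ctss, Ctsh, Ctsz, Ctsd and Lgmn.

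Ctss is a cysteine protease that stays active at neutral pH and removes the invariant chain from MHC class II in antigen-presenting cells. The gene lies on chromosome 3 from 95526786 to 95556403, plus strand (GENCODE M21, mm10). Its log2 CPM was 5.78, 6.02 and 5.45 in SG males, 5.66, 5.59 and 5.44 in SG females, 7.00, 6.60 and 6.67 in YSGr males and 6.70, 6.45 and 6.26 in YSGr females. The lowest YSGr library, female 12, was above the highest SG library, male 2. Mean CPM rose from 50.7 to 98.9 (log2 fold change 0.96, SE 0.12, 95% interval 0.69 to 1.22, limma adjusted p = 0.0005). The call held without each library in turn, with adjusted p of 0.00041 to 0.0027. It was the 1 member that rose in both sexes taken alone. The change was 0.91 in females (SE 0.17, limma adjusted p = 0.014) and 1.01 in males (SE 0.17, limma adjusted p = 0.0087), and the difference between them was -0.10 (95% interval -0.63 to 0.43). The female call was lost without SG female 5 (limma adjusted p = 0.071), SG female 6 (0.088) or YSGr female 10 (0.085).

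Ctsc, also known as dipeptidyl peptidase I, activates the granule serine proteases of neutrophils and cytotoxic lymphocytes. It lies on chromosome 7 from 88278085 to 88310888, plus strand. Its log2 CPM was 3.98, 4.06 and 4.2 in SG males, 3.96, 3.96 and 4.19 in SG females, 5.24, 4.72 and 4.79 in YSGr males and 4.85, 4.97 and 4.34 in YSGr females. The genotypes did not overlap, and YSGr female 12 came nearest to the SG values. Mean CPM rose from 16.5 to 28.5, a ratio of 1.73 (log2 fold change 0.76, SE 0.14, 95% interval 0.46 to 1.06, limma adjusted p = 0.0044), and the call held without each library in turn (0.0018 to 0.016). In males Ctsc rose by a log2 fold change of 0.83 (limma adjusted p = 0.029). That call was lost without SG male 1 (0.057), SG male 2 (0.067), SG male 3 (just above 0.05), SG female 5 (just above 0.05), YSGr male 7 (0.069) or YSGr male 8 (0.051). In females the value was 0.69 (SE 0.20, limma adjusted p = 0.089), and it passed without YSGr female 12 (0.036).

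Markers of infiltrating macrophages and monocytes were also higher in YSGr as a sum. Their summed level over all genes in the table was 268 to 287 CPM in SG and 470 to 865 CPM in YSGr. Of 13 tested 7 rose and 1 fell, but 3 of the 13, with 2 of those that rose, met the filter on low values only through YSGr libraries. Lyz2 and Gpnmb, among the most abundant of them, rose by log2 fold changes of 1.79 and 1.98. Lyz2 held 91.9 to 156 CPM in SG and 220 to 511 CPM in YSGr. Gpnmb held 24.4 to 38.9 CPM in SG and 72.5 to 176 CPM in YSGr, so these genes made up most of the sum in YSGr. Fn1 fell (-0.56), and Adgre1, Mrc1 and Cd163 were not called. Within YSGr, male 7 had the highest sum, 865 CPM, and the highest Ctsc log2 CPM, 5.24. Female 12 had a sum of 516 CPM and the lowest Ctsc, 4.34. Female 11 had the lowest sum, 470 CPM, and a Ctsc log2 CPM of 4.97, above males 8 and 9. Neutrophil markers summed to 10.6 to 14.8 CPM in SG and 16.6 to 43.7 CPM in YSGr. Of the 6 neutrophil genes tested (13 listed), 5 met the filter only through YSGr, so their higher values there are set in part by the filter, and the other, Csf3r, rose by 0.56 on the log2 scale (limma adjusted p = 0.024). The Csf3r call was lost without any 1 of the 3 SG females (0.057 to 0.062) and without male 9 (0.054) or female 10 (0.052) of YSGr. Of the dendritic cell markers 2 of 4 tested rose, and their sums overlapped (22.8 to 35.4 and 25.9 to 55.7 CPM). Of 16 microglia markers tested, 2 rose (C1qb and C1qc) and 1 fell (Gpr34). The C1qb call was lost in 9 of 12 left-out fits and the C1qc call without YSGr female 10 (limma adjusted p = 0.051). The microglia list had overlapping sums of 729 to 967 and 798 to 1110 CPM and a Csf1r log2 fold change of 0.07 (limma adjusted p = 0.72). The lymphocyte sums over the 10 of 13 listed genes in the table were 7.26 to 10.4 and 5.79 to 21.6 CPM, and of these genes 2 were tested and neither passed. No marker found in the table on these lists was at 0 in all libraries, and the neutrophil genes Ly6g, Mpo and Elane were not analysed here. With the sexes averaged, 6.16% of all genes rose and 5.27% fell. The part of these cell types in the cathepsin changes was not tested.

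Ctsb, on chromosome 14 from 63122462 to 63145923 (plus strand), had log2 CPM of 9.08, 9.56 and 9.03 in SG males, 8.99, 9.02 and 9.02 in SG females, 9.74, 9.58 and 9.56 in YSGr males and 9.41, 9.53 and 9.24 in YSGr females. Apart from SG male 2, every SG library was below every YSGr library. Mean CPM rose from 561 to 733 (log2 fold change 0.39, SE 0.11, limma adjusted p = 0.034). Ctsl, an endopeptidase on chromosome 13 from 64359337 to 64370890 (minus strand), had log2 CPM of 6.19, 6.24 and 6.06 in SG males, 5.78, 6.04 and 5.96 in SG females, 6.63, 6.41 and 6.52 in YSGr males and 6.26, 6.66 and 6.10 in YSGr females. YSGr female 12 was the 1 YSGr library within the SG range. Mean CPM rose from 66.1 to 86.7 (log2 fold change 0.38, SE 0.11, limma adjusted p = 0.037). These calls lay near the threshold. Ctsb passed without SG male 2, YSGr male 8, YSGr male 9 or YSGr female 12 but not without any 1 of the other 8 libraries, with limma adjusted p of 0.0026 to 0.085 over the 12 fits. Ctsl passed without SG male 2, YSGr male 8 or YSGr female 12 but not without any 1 of the other 9, with 0.017 to 0.098. Ctsb overlaps Fdft1 on the opposite strand (log2 fold change -0.39, limma adjusted p = 0.078), and the use of strand in counting is not given in the sources used here.

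Ctsh, an aminopeptidase on chromosome 9 from 90054152 to 90076089 (plus strand), had log2 CPM of 4.08 to 4.59 in SG and 4.31 to 5.40 in YSGr, and 4 of 6 YSGr libraries lay above all SG libraries. Mean CPM was 18.7 and 28.4 (log2 fold change 0.57, SE 0.18, limma adjusted p = 0.055), and the gene passed without SG male 2 (0.039), YSGr male 9 (0.018) or YSGr female 11 (0.04). The estimates of Lgmn (chromosome 12, 102394084 to 102439813, minus strand), Ctsd (chromosome 7, 142375911 to 142388038, minus strand) and Ctsz (chromosome 2, 174427493 to 174439039, minus strand) were 0.25, 0.24 and 0.23. Their limma adjusted p was 0.17, 0.26 and 0.24. The 95% interval ran from -0.05 to 0.53 for Ctsd and from -0.04 to 0.51 for Ctsz. SG male 2 was the highest of all 12 libraries for Ctsz (7.30) and Ctsd (10.70). Without it these 3 genes passed, at 0.32 for Lgmn (limma adjusted p = 0.043), 0.35 for Ctsd (0.047) and 0.34 for Ctsz (0.031), so that 9 members were called. SG male 2 also had the highest summed microglia markers among the SG libraries, 967 CPM against 729 to 845 CPM. The markers did not move together there. C1qa was at its highest SG value in that library (139 CPM), and P2ry12 (24.1 CPM) and Csf1r (78.3 CPM) were at their lowest. The part of SG male 2 in these results beyond this left-out fit was not tested. Ctsz overlaps Nelfcd on the opposite strand (log2 fold change -0.33, limma adjusted p = 0.1). Ctsd overlaps the protein-coding gene Gm49369 on the same strand, and how reads in the shared part were assigned is not given in the sources used here. Ctsl and Ctss overlap pseudogenes on the same strand. Ctsl also overlaps an antisense RNA, and Ctsc a long non-coding RNA on the opposite strand.

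**Figure D3:**
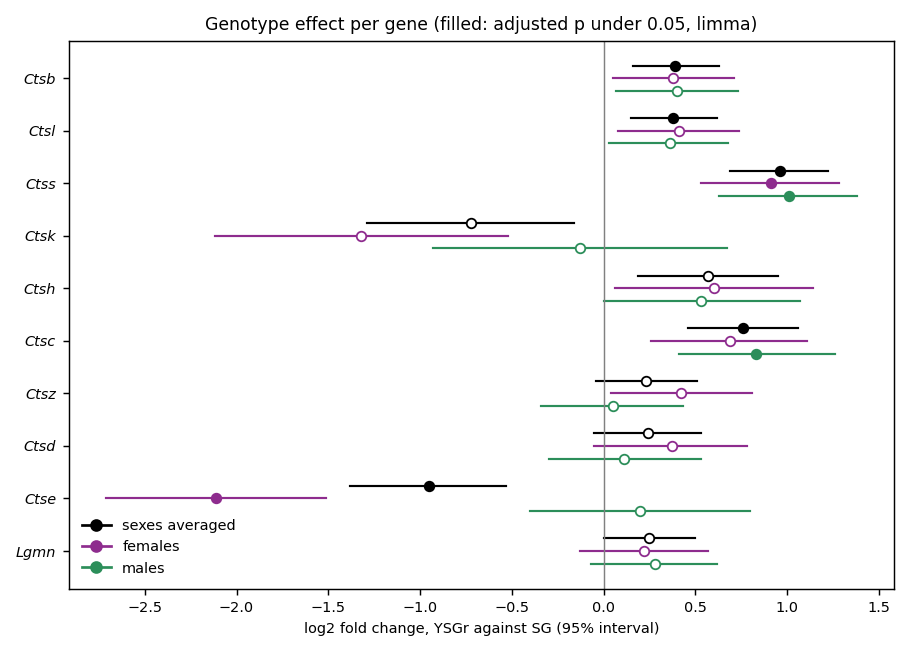
Log2 fold change of YSGr against SG for each cathepsin, in females, in males and averaged, with 95% confidence intervals from limma. The intervals of Ctss, Ctsc, Ctsb and Ctsl lie above 0 in both sexes, and Ctse lies at -2.11 in females and 0.20 in males.

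Ctse, an aspartic protease of endosomes found mainly in immune and epithelial cells, fell in YSGr females. It lies on chromosome 1 from 131638306 to 131675505, plus strand. Its log2 CPM was 3.21, 2.61 and 3.32 in SG males, 3.19, 2.95 and 2.85 in SG females, 3.45, 2.99 and 3.3 in YSGr males and 1.39, 0.55 and 0.73 in YSGr females. The estimated reads behind these values were 88, 53 and 93, then 88, 69 and 64, then 107, 73 and 93, and in YSGr females 23, 12 and 13. The 3 YSGr females were thus below all 9 other libraries, which overlapped among themselves. In females mean CPM was 7.82 in SG and 1.70 in YSGr, 4.59-fold lower (log2 fold change -2.11, SE 0.28, 95% interval -2.71 to -1.51, limma adjusted p = 0.0018), and the call held without each library in turn (-2.36 to -1.94). In males mean CPM was 8.24 in SG and 9.36 in YSGr (log2 fold change 0.20, SE 0.28, 95% interval -0.40 to 0.80, limma adjusted p = 0.65). The averaged value, -0.95 (SE 0.20, limma adjusted p = 0.008), is the mean of these unlike values, and with genotype as the only term it did not pass (limma adjusted p = 0.22).

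Subtracting the male from the female effect on Ctse gave -2.31 (SE 0.39, 95% interval -3.16 to -1.46). The unadjusted limma p of this difference was 5.5e-05 and its limma adjusted p 0.26, so the sexes were not called different after adjustment over all genes. In that test 1 of 14147 genes passed (0.00707%) and 0 of the 10 members did, with 2 members (Ctse and Ctsk) and 11.6% of all genes at an unadjusted p below 0.05. Leaving out YSGr female 11 brought Ctse to a limma adjusted p of 0.037, and the estimate ran from -2.56 to -2.09 over the 12 left-out fits. Within YSGr, Ctse was lower in females than in males (log2 difference -2.36, SE 0.28, limma adjusted p = 0.0024), with a 5.5-fold lower mean CPM. It was the 1 member called there, where 0.0778% of all genes passed, and the call held without each library in turn (0.0014 to 0.021). The background share was not stable: 9 to 24 genes passed in 11 of the left-out fits and 1026 without YSGr female 11, beside 11 in the full fit. For the difference of effects it was 1 or 2 genes in 11 of the fits and 119 without YSGr female 11. Within SG the female minus male value was -0.05 (95% interval -0.65 to 0.55). There 0 of 10 members passed and 0 had an unadjusted p below 0.05, against 0.0353% and 1.83% of all genes, in limma.

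Residual Yap1 was 9, 12 and 7 reads in YSGr females and 33, 29 and 14 in YSGr males, a log2 difference of -1.18 (SE 0.29) that did not pass (limma adjusted p = 0.14). The summed markers of pericytes, fibroblasts and meninges were 126 to 166 CPM in YSGr females and 174 to 300 CPM in YSGr males, and those of the oligodendrocyte lineage were 1130 to 2310 and 2420 to 10600 CPM, without overlap in either list. Granule neuron progenitor markers were also separated, in the opposite direction, at 4270 to 4850 CPM in YSGr females and 2980 to 4090 CPM in YSGr males. Neutrophil sums, 16.6 to 35.3 and 32.8 to 43.7 CPM, and dendritic cell sums, 25.9 to 49.8 and 41.2 to 55.7 CPM, overlapped between YSGr females and males. The part of these values in the Ctse difference was not tested.

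Ctsk, the collagen-degrading cysteine protease of osteoclasts and some fibroblasts, was at the edge of detection, with 6 to 32 estimated reads per library. It lies on chromosome 3 from 95499256 to 95509362, plus strand. Its log2 CPM was 0.97, 1.73 and 1.00 in SG males, 1.10, 1.89 and 1.5 in SG females, 1.01, 1.57 and 0.73 in YSGr males and -0.25, 0.65 and 0.14 in YSGr females. The YSGr females were lowest, below all 9 other libraries. Mean CPM in females was 2.68 in SG and 0.957 in YSGr, 2.8-fold lower, with a log2 fold change of -1.32 (SE 0.37, limma adjusted p = 0.078) that did not pass. The male value was -0.13 (95% interval -0.93 to 0.67), the averaged value -0.72 (SE 0.26, limma adjusted p = 0.09) and the female minus male difference -1.19 (SE 0.52, limma adjusted p = 0.43). The osteoclast and bone markers, 5 of 9 listed in the table, summed to 9.26 to 14 CPM in SG, 8.17 to 25.8 CPM in YSGr males and 3.99 to 10.9 CPM in YSGr females, and their part in the Ctsk values was not tested.

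Taking each sex alone, every cathepsin was separated by genotype in the females. The 3 YSGr females lay above the 3 SG females for 8 members (Ctsb, Ctsl, Ctss, Ctsh, Ctsc, Ctsz, Ctsd and Lgmn) and below them for 2 (Ctsk and Ctse), as 14% and 13.9% of all genes did. In males 3 members (Ctsl, Ctss and Ctsc) had all YSGr above all SG libraries and 0 the reverse, against 16.3% and 18% of all genes. By the limma test, however, 1 member rose (Ctss) and 1 fell (Ctse) in females, where 1.15% of all genes rose and 1.87% fell. In males 2 rose (Ctss and Ctsc) and 0 fell, against 4.43% and 3.42% of all genes (7.85% in either direction). Females lay below males without overlap for 3 members within YSGr (Ctsb, Ctsk and Ctse, against 9.35% of all genes) and for 3 within SG (Ctsb, Ctsl and Ctsz, against 6.26%). Females lay above males for 0 members within either, against 11.5% and 5.92% of all genes. The members' median log2 fold change was 0.40 in females and 0.32 in males. At an unadjusted p below 0.05 there were 8 members in females and 4 in males, against 15.1% and 29.9% of all genes.

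The genes whose profiles over the 12 libraries lay nearest to each cathepsin were found by the root mean square (RMS) difference of log2 CPM after each gene was centred on its own mean, among 12540 genes with mean log2 CPM above 1. Nearest to Ctss were Pgbd5 (0.17), Hk3 (0.18) and Ifitm3 (0.19), and nearest to Ctsc were P2rx4 (0.17), Lcp1 (0.17) and Cd53 (0.18). Nearest to Ctsh were Cd68 (0.19), Abhd14b (0.19) and Lrrc25 (0.21). Ctsb and Ctsl shared Itm2b (0.10 from each) and Olfml3 (0.11 and 0.12) among their nearest 3. Ctsz and Ctsd were each among the other's nearest 3, at 0.11. For Ctse the nearest were Lama3 (0.44), Tagap (0.44) and Emp2 (0.54), all farther away than the nearest genes of the other members. Between members, Ctss and Ctsc differed by 0.24, Ctsb and Lgmn by 0.12 and Ctse and Ctsk by 0.80. These distances share the libraries and their depth, and they describe likeness over these 12 libraries alone.

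Among the natural inhibitors of cathepsins, the cystatins and certain serpins, 1 of 9 tested was called with the sexes averaged (19 listed), against 11.4% of all genes. Of the 9, 3 met the filter on low values only through YSGr libraries. The 1 called was Cst6, a secreted cystatin, at 1.2 (limma adjusted p = 0.047). It is one of those 3, above log2 CPM 0 in 0 SG and 3 YSGr libraries, so it entered the test only by being higher there. It was called in 3 of the 9 left-out fits it could enter. Serpinb1a, a protease inhibitor of myeloid cells, was above 0 in 1 SG and 6 YSGr libraries and was at 1.34 (limma adjusted p = 0.058). Cst3, the abundant secreted cystatin C, was at -0.34 (limma adjusted p = 0.11) and passed without SG male 3 (just under 0.05). Cstb, the cytosolic cystatin B, was at 0.31 (limma adjusted p = 0.14) and passed without SG male 2 (0.027). Cst7, cystatin F of immune cells, which restrains Ctsc, was at 0.72 (limma adjusted p = 0.066) and passed without YSGr male 8 (0.0083).

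Of the other cathepsins and lysosomal proteases 1 of 11 tested rose, Dpp7 at 0.48 (limma adjusted p = 0.033), and 0 fell (median 0.12). Ctsf, a further cysteine cathepsin, was at 0.35 (limma adjusted p = 0.13). Of the genes for lysosomal sorting and transport 1 of 16 rose, Psap, the saposin precursor, at 0.42 (limma adjusted p = 0.039), and 0 fell (median 0.10). Igf2r, a mannose 6-phosphate receptor that delivers cathepsins to the lysosome, was at 0.56 (limma adjusted p = 0.054). Of the 4 lysosomal transcription factors tested 0 rose and 0 fell by limma, Mitf being at 0.38 (limma adjusted p = 0.12) and Tfe3 at -0.20 (0.13). Over all genes tested 6.16% rose and 5.27% fell with the sexes averaged. The counts of the protease and sorting lists lay near these shares.

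Genes for the lysosomal membrane and its acidification had 6 of 19 called, all higher in YSGr (median 0.20). Atp6v0d2, a proton pump subunit of macrophages and osteoclasts, rose by 1.85 (limma adjusted p = 0.0066), Atp6v1a, a catalytic subunit of the pump, by 0.46 (0.024) and Npc1, the lysosomal cholesterol exporter, by 0.70 (0.03). Clcn7 at 0.39 (limma adjusted p = 0.031), Atp6v1b2 at 0.52 (0.036) and Atp6ap2 at 0.39 (0.039) were the other three. The common lysosomal marker Lamp1 was at 0.03 (limma adjusted p = 0.83). Of the other lysosomal hydrolases 4 of 30 rose and 0 fell (median 0.12). They were Acp5, the tartrate-resistant acid phosphatase, at 2.13 (limma adjusted p = 0.0063), Lipa, acid lipase, at 0.56 (0.01), Asah1, acid ceramidase, at 0.60 (0.016) and Neu1, a sialidase bound to cathepsin A, at 0.42 (0.019). Acp5 exceeded log2 CPM 0 in 2 SG libraries and 6 YSGr libraries, so it met the filter only through YSGr, and it dropped out under the stricter filter (log2 CPM above 1 in at least 6 libraries). In males 4 of the membrane genes and 3 of the hydrolases rose, and in females 0 of each did. Among all genes 6.16% rose with the sexes averaged, 4.43% in males and 1.15% in females. The median log2 fold change of the membrane list was 0.20 in males and 0.22 in females, and that of the hydrolases 0.19 and 0.04. No gene of either list passed the limma test of the difference between the sexes, and the lists were not tested as such.

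The partners of cathepsins in MHC class II antigen processing had 3 of 6 tested called with the sexes averaged, all higher in YSGr, where 6.16% of all genes rose. Of these 3, Ciita met the filter only through YSGr (above 0 in 1 SG and 6 YSGr libraries). Cd74, the invariant chain that Ctss cleaves, rose by 3.83 on the log2 scale (limma adjusted p = 4.8e-05). Ciita, the master regulator of class II genes, rose by 1.83 (limma adjusted p = 0.02) and H2-DMb1, which loads peptides, by 0.94 (0.028). The summed level of the list was 11.6 to 16.2 CPM in SG and 25.4 to 96.1 CPM in YSGr. Of this, Cd74 alone held 1.31 to 4.88 CPM in SG and 12.0 to 78.2 CPM in YSGr. H2-DMa (0.16), H2-Ob (0.15) and H2-DMb2 (-0.11) were not called. Left-out fits removed the calls of Psap, Dpp7, Clcn7, Npc1, Atp6v1a, Atp6v1b2, Atp6ap2, Neu1, Ciita, H2-DMb1 and Cst6 at least once. Acp5, Lipa, Asah1, Atp6v0d2 and Cd74 passed in all 12.

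**Figure D4:**
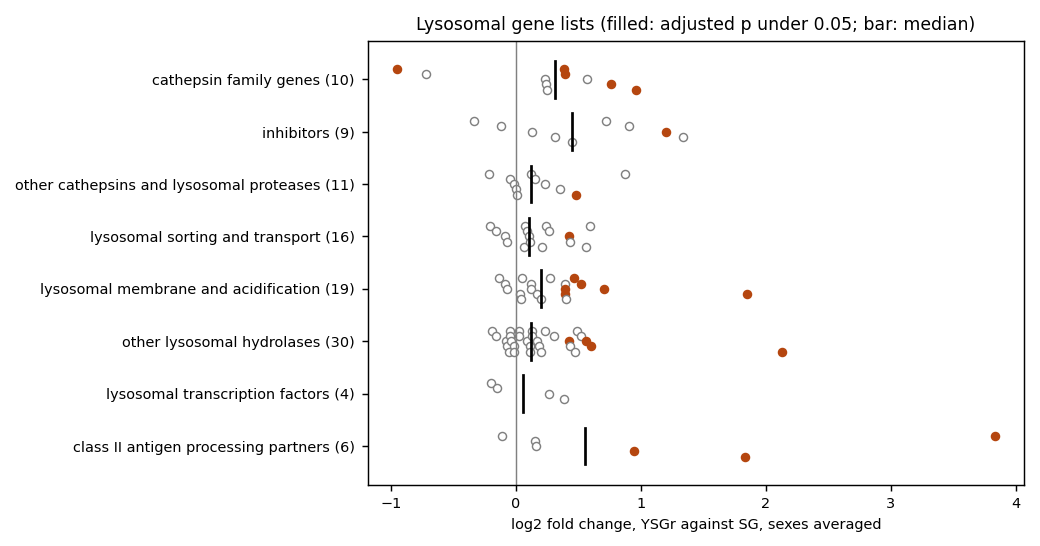
Log2 fold change of YSGr against SG, sexes averaged, for each tested gene of the 10 cathepsins and of 7 related lists, with filled points for genes past an adjusted p of 0.05 in limma and a bar at each list's median. Cd74 at 3.83 lies farthest from 0, and the 10 cathepsins have a median of 0.32.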

How the data were processed

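Per the labels, BGI sequenced the tumour RNA on a BGISEQ-500 instrument. The authors deposited log2 CPM values for 15672 genes in 12 libraries. The submitters' processing notes name Trimmomatic 0.33, RSEM 1.2.12, Bowtie2, Picard 1.95, edgeR 3.30.3 and mm10. Strand use and the filter before deposit were not given in the sources used here. The lowest value, -2.24 log2 CPM, was taken to be 0 reads plus a prior count, an assumption that the sources used here do not state. A prior count would understate the changes of low genes such as Ctsk. Steps between low values gave estimated reads, whole within 0.02 reads for 92.1 to 93.1% of genes; a floor of 3 reads equals 0.301 to 0.333 CPM, and no test used the reads. CPM values, their means, sums, ratios and levels per kilobase are these reads times the CPM worth of 1 read, which takes the assumed prior count off. Log2 values, fold changes and tests use the deposited values unchanged.

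The test was limma 3.58.1 (R 4.3.3) on the values as deposited, with 1 mean per group, a mean-variance trend, two-sided tests and Benjamini-Hochberg adjustment over 14147 genes with log2 CPM above 0 in at least 3 libraries (threshold 0.05). The spread was estimated over all 12 libraries. The fit was tested on simulated data. Intervals are 95%. Coordinates and transcript lengths come from GENCODE M21 (mm10), which held 15602 of the gene names; lengths are those of the principal protein-coding transcript. The members, the related gene lists and the marker lists were chosen with earlier results of these data known. All members were named; from each related list, up to 5 called genes by smallest adjusted p, or the 2 smallest where fewer than 2 passed, with Cst3, Cstb, Cst7, Cd74 and Yap1 in any case and the 3 nearest genes by profile. Other genes named (Atp6ap2, Gpr34, C1qb, C1qc, Csf1r, Csf3r, Atoh1, Camk4, Neurod1, Lamp1, Fdft1 and Nelfcd) were added after their values were seen. So were C1qa, P2ry12, Lyz2, Gpnmb, Fn1, Adgre1, Mrc1, Cd163, Zic1, H2-DMa, H2-DMb2 and H2-Ob, which are not among the alternative fold changes counted below. Gm49369 was named for its overlap with Ctsd. Alternatives were other filters, pseudocount, normalization, library weights, designs and left-out libraries.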

Additional observations from a re-analysis of the deposited data

Results flagged for a closer look

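In 20 groups of 6 libraries (10 genes in each genotype), 5 held a library farther from its neighbour than Dixon's 95% critical value of 0.625, which chance gives in about 1 group in 20. SG male 2 was the high library in 4 of them. Its log2 CPM was 9.56 for Ctsb against 8.99 to 9.08 in the other SG libraries, 4.59 for Ctsh against 4.08 to 4.23, 7.30 for Ctsz against 6.55 to 6.70 and 10.70 for Ctsd against 9.96 to 10.15. YSGr male 7 was high for Lgmn, at 8.01 against 7.54 to 7.70 in the other YSGr libraries. The genes share these libraries, so the flags are not independent.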

How the results depend on the processing

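Counts of members called (5 averaged, 2 in females, 2 in males, 0 for the difference between the sexes, 0 within SG and 1 within YSGr) moved most with library weights estimated by limma, which gave SG male 2 a weight of 0.10. With these weights the counts were 10, 9, 8, 2 and 2 (averaged, females, males, difference, within YSGr), and calls over all genes were 4986, 4483, 2326, 675 and 1819. Leaving out SG male 2 and YSGr male 8 together was an alternative added after the data were seen. It gave 8 members averaged and 7 in females (1934 genes averaged, 1268 in females and 245 in males). Genotype as the only term gave 2 averaged (1310 genes). A fit on male libraries alone gave 1 in males (318 genes) while female libraries alone called 761 genes. Without each library in turn, members called ranged from 3 to 9 averaged, 1 to 3 in females, 1 to 2 in males, 0 to 1 for the difference, 0 within SG and 1 within YSGr; genes called ranged from 900 to 2088, 94 to 785 and 286 to 1662 for averaged, females and males, 1 to 119 for the difference and 9 to 1026 within YSGr, with both highest without YSGr female 11. The stricter filter could not test Cst6, Acp5, Ciita and Serpinb1a. Quantile normalization added Ctsk (-0.93, limma adjusted p = 0.031) and Ctsd (0.36, 0.038). Member values that changed sign were all in males and near 0: Ctsz was -0.04 without SG male 1, -0.07 without SG male 3 and -0.04 without YSGr male 9 (range -0.07 to 0.26); Ctsk was 0.12 without SG male 2 and 0.06 without YSGr male 9 (-0.36 to 0.12); Ctse was -0.02 without SG male 2 (-0.02 to 0.34); Ctsd was -0.01 without SG male 3 and -0.02 without YSGr male 7 (-0.02 to 0.33). The cause was not tested. Lamp1 averaged was -0.01 without YSGr female 11 (-0.01 to 0.07), and Csf1r was -0.01 with SG male 2 and YSGr male 8 left out. Of 1528 alternative fold changes of named genes, 1314 kept direction and side of the threshold. No paired analysis was possible because the library numbers run from 1 to 12 without repeats. Depth limits Ctsk most, at 6 to 32 reads.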
